A study of Homo sapiens with 12 samples.

Results

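Tetraspanins of blood cells were followed through 4 groups of leukaemia cells: CD9, CD37, CD53, CD63, CD81, CD82, CD151, TSPAN32 and TSPAN33, which are 9 of the 19447 gene symbols in the count table. The genes were taken by name, and the names were chosen by a list drawn up when results of these 12 libraries were already known, so that their mRNA levels in the 4 groups count as used in the choice. The values of the 9 genes are therefore given as a description, without p-values. All 9 passed the filter on low counts in every comparison. The table also held 24 other tetraspanin genes, so the 9 are part of the 33 human tetraspanins listed here.

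The mRNA came from K562, a human chronic myeloid leukaemia line that carries the BCR-ABL fusion kinase, and from K562/IM, 1 line derived from it by raising the concentration of the kinase inhibitor imatinib stepwise over months and then kept in 5 µM imatinib. Each line was sequenced without and with 6 µM lycorine, an alkaloid of Amaryllidaceae plants. This gave the lycorine groups K562+L and K562/IM+L beside K562 and K562/IM, with 3 libraries in each of the 4. Whether imatinib was in the medium of the sequenced K562/IM cells was not given in the sources used here. All 4 groups share the K562 background, both K562/IM groups share 1 selection history, and the exposure time to lycorine before sequencing was not given in the sources used here. Libraries were made from polyadenylated RNA, and no source says that those of a group came from separate cultures, so the spread between them may be technical.

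The libraries held 75093844 to 107344598 counts. Levels are given as CPM, counts scaled to a common library size, with library sizes adjusted by the trimmed mean of M-values (TMM). The K562/IM+L-labelled libraries stood apart from K562/IM: the median Spearman correlation over genes was 0.909 between these groups and 0.941 between the K562/IM+L-labelled libraries and K562. ABCB1, the drug efflux pump, lay at 21.9 to 25.9 CPM in K562/IM, 1.68 to 1.86 in K562, 3.83 to 5.15 in K562+L and 0.488 to 1.06 in the K562/IM+L-labelled libraries. Whether those libraries are lycorine-treated K562/IM cells was not tested, and they are named by their label throughout. Markers of the erythroid lineage, which K562 cells are known for, were present in every group: 8 of 8 listed genes had group means of at least 1 CPM, with summed levels of 5319 to 7897 CPM in K562, 3790 to 4453 in K562+L, 1938 to 2153 in K562/IM and 30689.5 to 43841 in the K562/IM+L-labelled libraries.

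Tetraspanins are small proteins that cross the membrane 4 times and gather integrins, immunoglobulin-family receptors and proteases into membrane microdomains. They have few ligands of their own and act mainly by steering where their partners sit and how they traffic. In blood, CD53 and CD37 are largely restricted to leukocytes, and CD63 marks late endosomes, lysosomes and exosomes. CD81 is broadly expressed, on lymphocytes among other cells, and CD9 is abundant on platelets. CD151 binds laminin-binding integrins, and CD82 is known as a metastasis suppressor. TSPAN32 is a haematopoietic tetraspanin. TSPAN33 belongs to the TspanC8 group, which escorts the protease ADAM10 to the cell surface, and is found in erythroid progenitors and activated B cells.

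By the GENCODE 29 annotation of GRCh38, 4 of the 9 genes lie on chromosome 11: CD151 at chr11:832843-839831, TSPAN32 at chr11:2301997-2318200, CD81 at chr11:2376177-2397419 and CD82 at chr11:44564427-44620363. CD9 (chr12:6199715-6238271) and CD63 (chr12:55725323-55729707) lie on chromosome 12, CD53 at chr1:110871188-110899928, TSPAN33 at chr7:129144892-129169697 and CD37 at chr19:49335171-49343335. CD63 is on the minus strand and the other 8 genes are on the plus strand.

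RefSeq promoter windows were found for 5 of the 9 genes (CD9, CD53, CD63, CD82 and TSPAN33) and not for CD37, CD81, CD151 or TSPAN32. The 250 bases before the RefSeq start are shown for CD53 and TSPAN33, because their levels differed widely between groups and theirs were the windows with no more than 22 annotated exon bases. Capitals mark matches, on either strand, to any of 6 motifs, which are spelled out after the sequences. Sequences are 5′ to 3′ on the plus strand of GRCh38.p14, from chr1:110870960-110871209 and chr7:129144457-129144706.
CD53: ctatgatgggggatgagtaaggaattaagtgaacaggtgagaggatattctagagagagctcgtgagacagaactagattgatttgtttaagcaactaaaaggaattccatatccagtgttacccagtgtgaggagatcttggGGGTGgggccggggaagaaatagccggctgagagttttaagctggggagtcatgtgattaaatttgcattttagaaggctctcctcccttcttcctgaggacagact
TSPAN33: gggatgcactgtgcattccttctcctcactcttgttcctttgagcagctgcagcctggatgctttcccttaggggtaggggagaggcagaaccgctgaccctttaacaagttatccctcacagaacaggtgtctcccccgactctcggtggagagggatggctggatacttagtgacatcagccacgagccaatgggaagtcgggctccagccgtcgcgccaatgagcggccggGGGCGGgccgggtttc
The CD53 window held 1 match, CACCC read on the opposite strand, and its GC content was 45.2% with 3 CpG pairs. The TSPAN33 window held 1 GGGCGG, with 59.6% GC and 12 CpG pairs. Over 35116 promoter windows of the same length, 54.7% held CACCC, the letters of KLF factors. The SP1-type letters GGGCGG were in 42.6%. The PU.1-type letters GAGGAA were in 23.6% and the broader ETS-type letters CCGGAA in 14.5%. The TATA box, searched as TATAAA, was in 10.7%. The GATA-type letters, AGATAA in which thymine may stand first and guanine last, were in 22.3% of windows, and the median window had 11 CpG pairs. The windows of CD63 and CD82 were richer in GC, at 79.2% and 77.2%, and held 3 and 4 matches of the SP1 type. The CD63 window also held 2 matches of the KLF type and 1 of the ETS type, and the CD9 window held 1 match each of the GATA, KLF and PU.1 types. The motifs do not overlap each other in the windows shown, and a match is a run of letters, not a measured binding site.

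Of the 9 members, CD63, CD81 and CD151 had the highest levels in K562 and K562+L, and CD63 had the widest range of the 3. CD63 lay at 262, 284 and 337 CPM in K562, 111, 115 and 110.3 in K562+L, 238, 229 and 251 in K562/IM, and 321, 325 and 249 in the K562/IM+L-labelled libraries (replicates in order of number). The K562+L libraries were below all others, and the ranges of K562 and the K562/IM+L-labelled libraries overlapped. Group means ± SD (n = 3) were 295 ± 38.6, 112 ± 2.24, 239 ± 11.1 and 298 ± 42.6, a 2.66-fold range. CD81 lay at 109.7, 132 and 150.5 CPM in K562, 121, 126 and 115 in K562+L, 90.2, 92.3 and 92.1 in K562/IM, and 131, 141 and 103 in the K562/IM+L-labelled libraries. Its means spanned 1.43-fold, and only K562/IM lay clear of the group next to it in order. CD151 lay at 140.0, 169 and 197 CPM in K562, 146, 145 and 130.2 in K562+L, 119.8, 122 and 119 in K562/IM, and 135, 131 and 107 in the K562/IM+L-labelled libraries. Its means spanned 1.41-fold, and every pair of neighbouring groups in the order overlapped.

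CD9 was at a lower level per length, with means of 7.85 to 13.6 CPM per kilobase of transcript against 60.2 to 102 for CD81 and CD151, and was highest in the K562/IM+L-labelled libraries. It lay at 11.1, 12.4 and 13.4 CPM in K562, 13.3, 14.0 and 12.7 in K562+L, 13.4, 15.9 and 15.1 in K562/IM, and 20.3, 22.8 and 20.7 in the K562/IM+L-labelled libraries. The last group lay above every other library, while K562, K562+L and K562/IM overlapped in that order, and the means spanned 1.73-fold.

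**Figure D1:**
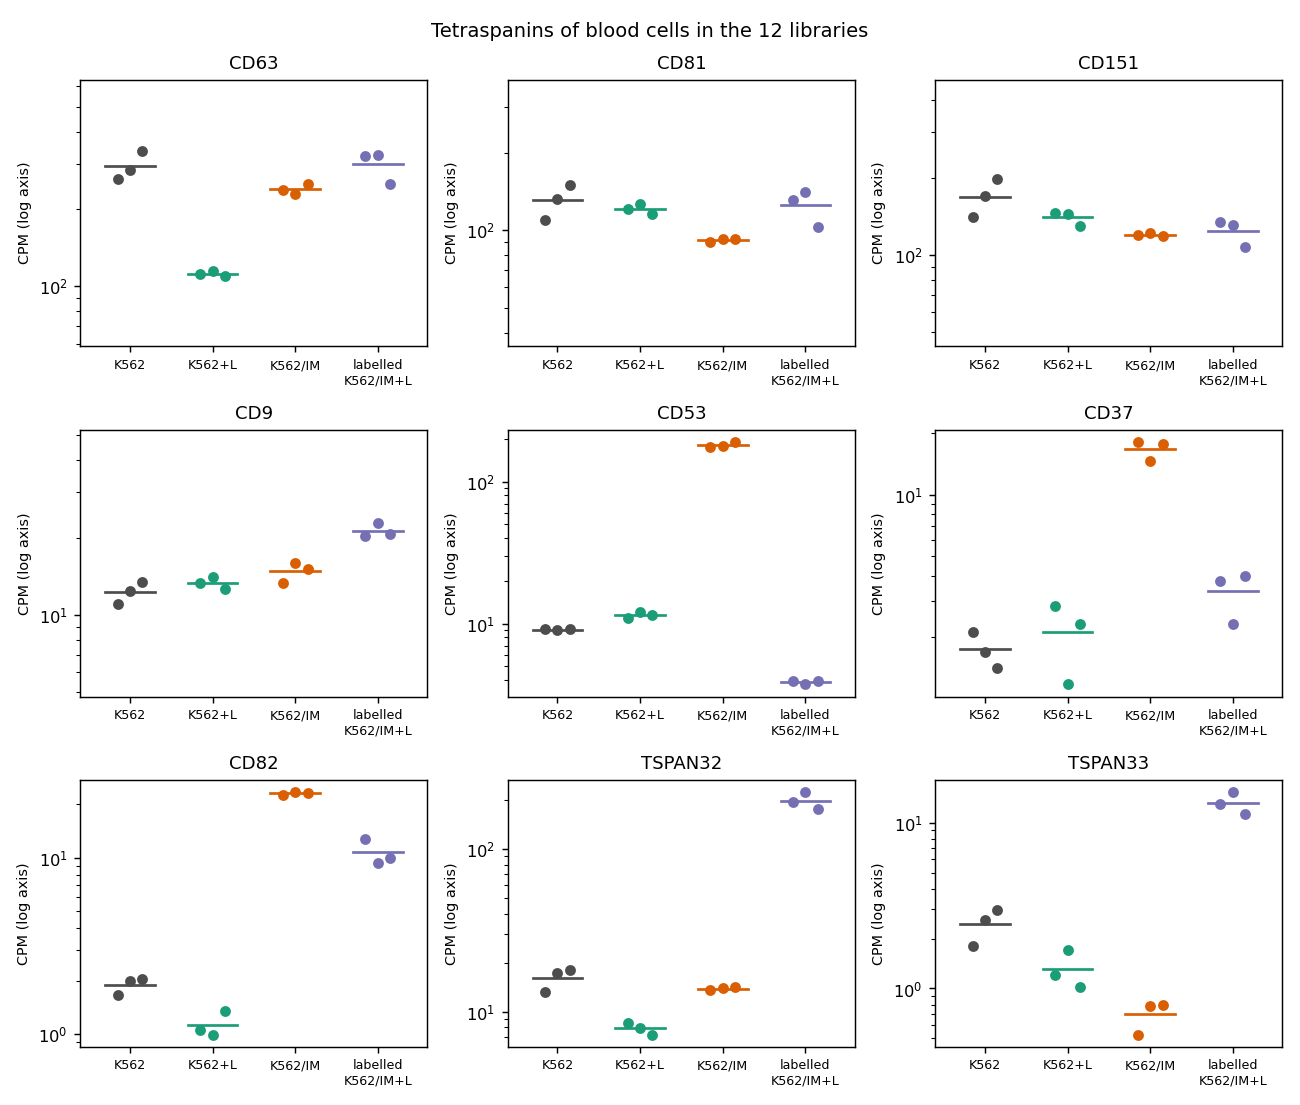
Levels of the 9 tetraspanins in CPM (log axis) in each of the 12 libraries, 1 panel a gene; points are libraries and bars are means of 3. CD53, CD37 and CD82 are highest in K562/IM, at means of 182, 16.8 and 23.2 CPM, and TSPAN32 and TSPAN33 are highest in the K562/IM+L-labelled libraries, at 197 and 13.2 CPM.

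CD53 had the widest range of the 9 genes. It lay at 9.14, 8.94 and 9.14 CPM in K562, 11.02, 12.2 and 11.5 in K562+L, 176, 179.6 and 190.1 in K562/IM, and 3.94, 3.73 and 3.94 in the K562/IM+L-labelled libraries. No groups overlapped, and the order from high to low was K562/IM, K562+L, K562 and the K562/IM+L-labelled libraries. The group means ± SD (n = 3) were 9.07 ± 0.115, 11.5 ± 0.571, 182 ± 7.46 and 3.87 ± 0.124 CPM, a 47.0-fold range.

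CD37, the other leukocyte-restricted member, was also highest in K562/IM but at 10.0 CPM per kilobase of transcript against 116 for CD53. It lay at 2.11, 1.69 and 1.40 CPM in K562, 2.83, 1.17 and 2.31 in K562+L, 18.2, 14.6 and 17.7 in K562/IM, and 3.77, 2.32 and 3.96 in the K562/IM+L-labelled libraries. K562/IM stood above all other libraries, and the other 3 groups overlapped with their neighbours in the order. The means ± SD were 1.74 ± 0.356, 2.10 ± 0.851, 16.8 ± 1.92 and 3.35 ± 0.901 CPM, a 9.69-fold range, and the coefficient of variation reached 40.5% in K562+L, where counts were 101 to 245.

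CD82 was highest in K562/IM and intermediate in the K562/IM+L-labelled libraries. It lay at 1.66, 2.003 and 2.06 CPM in K562, 1.05, 0.993 and 1.35 in K562+L, 22.7, 23.5 and 23.3 in K562/IM, and 12.8, 9.34 and 9.98 in the K562/IM+L-labelled libraries. No groups overlapped. The means ± SD were 1.91 ± 0.218, 1.13 ± 0.194, 23.2 ± 0.418 and 10.7 ± 1.85 CPM, a 20.5-fold range. The K562/IM+L-labelled libraries thus lay above K562 for CD82 and below it for CD53.

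TSPAN32 was at overlapping levels in both lines without lycorine and highest in the K562/IM+L-labelled libraries. It lay at 13.3, 17.3 and 18.0 CPM in K562, 8.52, 7.97 and 7.23 in K562+L, 13.5, 13.9 and 14.1 in K562/IM, and 193, 224 and 175 in the K562/IM+L-labelled libraries. K562 and K562/IM overlapped, K562+L lay below both, and the means ± SD of 16.2 ± 2.54, 7.90 ± 0.649, 13.9 ± 0.281 and 197 ± 24.4 CPM spanned 24.97-fold. TSPAN33 had the lowest level per length of the 9 in K562/IM, 0.376 CPM per kilobase. It lay at 1.79, 2.60 and 2.97 CPM in K562, 1.20, 1.71 and 1.03 in K562+L, 0.527, 0.781 and 0.793 in K562/IM, and 13.0, 15.3 and 11.3 in the K562/IM+L-labelled libraries. No groups overlapped, and the means ± SD of 2.45 ± 0.603, 1.31 ± 0.354, 0.700 ± 0.150 and 13.2 ± 2.01 CPM spanned 18.9-fold. The K562/IM values rest on 44 to 85 counts a library.

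Between genes, levels were compared per kilobase of the longest annotated protein-coding transcript. On that scale the 9 tetraspanins summed to 456 ± 64.0 CPM per kilobase in K562, 279 ± 10.9 in K562+L, 483 ± 13.3 in K562/IM and 579 ± 73.2 in the K562/IM+L-labelled libraries (SD, n = 3). CD63 held the largest share of the sum in every group, with 52.5% in K562, 32.6% in K562+L, 40.2% in K562/IM and 41.7% in the K562/IM+L-labelled libraries. CD151 and CD81 held 22.3% and 18.9% in K562, and 30.3% and 28.4% in K562+L, where the 3 shares lay close together. Without division by length the order in K562+L turned, with 140.2 CPM for CD151, 121 for CD81 and 112 for CD63. The next largest gene depended on the group. In K562/IM it was CD53, with 23.99% of the sum against 1.29% in K562, 2.64% in K562+L and 0.432% in the K562/IM+L-labelled libraries. In the K562/IM+L-labelled libraries it was TSPAN32, with 25.9% against 2.69% in K562, 2.15% in K562+L and 2.18% in K562/IM. CD9, CD37, CD82 and TSPAN33 each held at most 3.04% in any group.

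**Figure D2:**
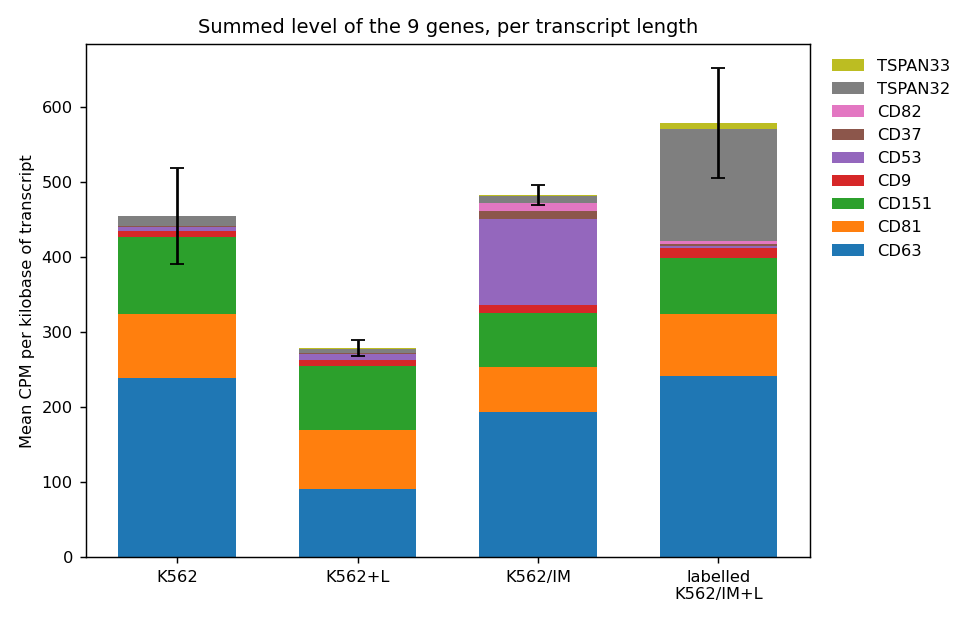
Stacked mean levels of the 9 genes in CPM per kilobase of transcript for the 4 groups; the error bar is the SD of the sum over 3 libraries. CD63, CD81 and CD151 form the base of every bar, CD53 makes up 23.99% of the sum in K562/IM, and TSPAN32 makes up 25.9% in the K562/IM+L-labelled libraries.

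The first comparison asks what lycorine did in the sensitive line. CD63 and TSPAN32 were the 2 members that met the call rule, an adjusted p under 0.05 with an absolute log2 fold change over 1, and both were lower in K562+L than in K562. CD63 differed by a log2 fold change of -1.40 ± 0.11 (SE) and TSPAN32 by -1.04 ± 0.14. No member was called higher by edgeR or by DESeq2, and CD53 was the 1 member with a higher level and an adjusted p under 0.05 below the fold limit. CD53 fell short of that p threshold in 6 of 14 alternative fits. Over all 12927 genes tested, 2.38% were called higher and 4.01% lower. TSPAN33 (-0.91 ± 0.28) lay just inside the fold limit, CD82 was at -0.75 ± 0.23, and the other 5 members lay between -0.27 and 0.35. The median log2 fold change of the 9 was -0.27, against 0.00 for all genes. The TSPAN32 call was close to the limit: it was lost without K562 replicate 2, K562 replicate 3 or K562+L replicate 3, which left 1 member called, while TSPAN33 was called lower, giving 3, without K562 replicate 1 or K562+L replicate 2.

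The second comparison asks how the resistant line differed from its parent, and it shares the K562 libraries with the first. Resistance and any imatinib in the medium cannot be told apart in it. CD53, CD82 and CD37 were higher in K562/IM than in K562 by log2 fold changes of 4.32 ± 0.077, 3.6 ± 0.12 and 3.27 ± 0.18, and TSPAN33 was lower, at -1.80 ± 0.29. These 4 were the members called, 3 higher and 1 lower, where 13.9% of the 13406 genes tested were called higher and 5.29% lower. CD81 (-0.52 ± 0.11), CD151 (-0.49 ± 0.12), CD63 (-0.30 ± 0.10) and TSPAN32 (-0.23 ± 0.13) lay below 0 and CD9 (0.27 ± 0.11) above it, all within the fold limit. The median of the 9 was -0.23, against 0.04 for all genes.

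The third comparison sets the K562/IM+L-labelled libraries against K562/IM and shares the K562/IM libraries with the second comparison. TSPAN33 and TSPAN32 were higher by log2 fold changes of 4.25 ± 0.21 and 3.86 ± 0.11, and CD53, CD37 and CD82 were lower, at -5.53 ± 0.082, -2.30 ± 0.22 and -1.09 ± 0.13. That made 2 members called higher and 3 lower, where 14.7% of 13727 genes were called higher and 13.8% lower. CD9 (0.55 ± 0.10), CD81 (0.48 ± 0.11), CD63 (0.34 ± 0.11) and CD151 (0.08 ± 0.09) lay within the fold limit. The median of the 9 was 0.34, against -0.01 for all genes. The CD82 call was lost without replicate 2 of the K562/IM+L-labelled libraries.

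Set against the same K562 libraries instead, the K562/IM+L-labelled libraries were higher in TSPAN32 by 3.59 ± 0.16, in CD82 by 2.47 ± 0.18 and in TSPAN33 by 2.41 ± 0.23, and lower in CD53, at -1.25 ± 0.12, all as log2 fold changes. With 3 members called higher and 1 lower, the shares over the 13307 genes tested were 14.9% higher and 8.91% lower. CD37, at 0.93 ± 0.27, lay just inside the fold limit and was called higher without K562 replicate 1 or without replicate 2 of the K562/IM+L-labelled libraries. CD63 and CD81 had values of 0.00 ± 0.15 and -0.08 ± 0.16. The median of the 9 was 0.77, against 0.02 for all genes. With upper-quartile normalization the median of all genes in this comparison moved by 0.15, and 73.0% of all calls were higher against 62.5% with TMM.

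**Figure D3:**
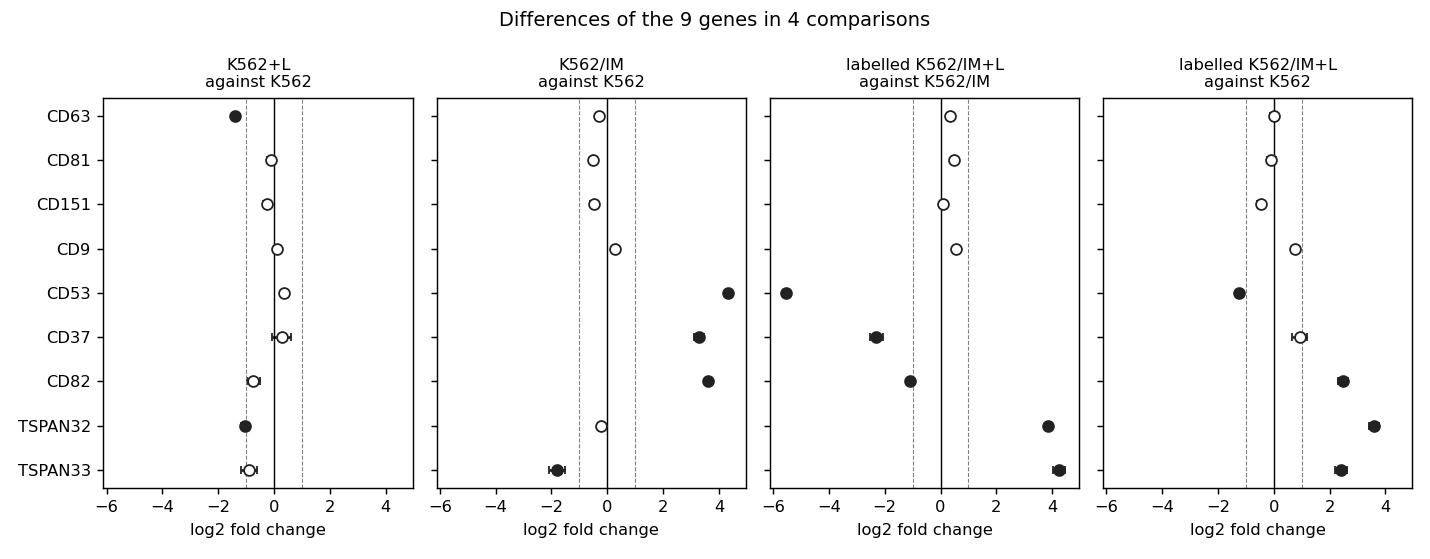
Log2 fold changes of the 9 tetraspanins in the 4 comparisons; bars are SE, filled points met the call rule and dashed lines mark the fold limit of 1. In the panel of the K562/IM+L-labelled libraries against K562/IM, CD53 lies at -5.53 and TSPAN33 at 4.25, the ends of the range.

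The difference between the lycorine effects of both lines, as labelled, was fitted over all 12 libraries. The call rule for it had no fold limit, and 29.9% of 13995 genes passed higher and 31.7% lower, so that most genes differed. Among the members, 5 passed higher and 2 lower. TSPAN33 (5.14 ± 0.37), TSPAN32 (4.87 ± 0.18) and CD63 (1.72 ± 0.16) had the highest values, followed by CD81 (0.57 ± 0.18) and CD9 (0.41 ± 0.14), while CD53 (-5.90 ± 0.10) and CD37 (-2.60 ± 0.42) were negative. CD82 (-0.36 ± 0.22) and CD151 (0.32 ± 0.17) did not pass. For CD63, CD81, CD151, TSPAN32 and TSPAN33 the estimate was negative in K562 and positive for the K562/IM+L-labelled libraries against K562/IM. It was the reverse for CD37 and CD53. Some of these signs are unsure: in K562 the estimate was no larger than its SE for CD37 (0.28 ± 0.34) and CD81 (-0.12 ± 0.12). The same held for CD151 (0.08 ± 0.09) in the K562/IM+L-labelled libraries against K562/IM. How often signs differed over all genes was not counted. The median of the 9 was 0.41, against -0.02 for all genes.

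Of the 24 other tetraspanins, 14 were tested in each comparison, by edgeR (quasi-likelihood), with p adjusted over all genes by Benjamini and Hochberg's method. The list of these genes was also written with earlier results of these data known, so its calls are a description. In K562+L only TSPAN9 met the call rule, with a log2 fold change of -1.22 against K562 (adjusted p = 0.016), and the median of the 14 was -0.31, against 0.00 for all genes, of which 2.38% were called higher and 4.01% lower. In K562/IM against K562, 4 rose and 1 fell, with a median of 0.25, against 0.04 for all genes and shares of 13.9% higher and 5.29% lower. TSPAN5, a TspanC8 member like TSPAN33, had the largest rise among the 14, at 6.13 (adjusted p = 3e-07). It lay at 0.417, 0.346 and 0.502 CPM in K562, 0.416, 0.416 and 0.384 in K562+L, 28.8, 28.8 and 31.2 in K562/IM, and 0.629, 1.55 and 2.01 in the K562/IM+L-labelled libraries. TSPAN18 rose by 3.66 (adjusted p = 6.5e-06) and TSPAN9 by 2.35 (adjusted p = 2.8e-05), and TSPAN13 fell by 2.02 (adjusted p = 2e-06).

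In the K562/IM+L-labelled libraries against K562/IM, 4 of the 14 rose and 5 fell, with a median of -0.04, against -0.01 for all genes and shares of 14.7% higher and 13.8% lower. The number of other tetraspanins called was higher, 11 to 13, in the fits that left out 1 library. The low-count filter was applied anew in those fits, so the genes tested there may not be the same 14. TSPAN17, also of the TspanC8 group, rose by 2.45 on the log2 scale (adjusted p = 1.1e-06), TSPAN7 by 3.93 (adjusted p = 3.1e-05) and TSPAN13 by 1.55 (adjusted p = 4e-06). TSPAN18 fell by 5.0 (adjusted p = 7.7e-06), TSPAN5 by 4.37 (adjusted p = 4e-05) and TSPAN9 by 1.59 (adjusted p = 2.6e-05). Against K562 instead, 4 rose and 2 fell, with a median of 0.28, against 0.02 for all genes and shares of 14.9% higher and 8.91% lower. TSPAN7 rose by 4.14 (adjusted p = 4.5e-05), TSPAN17 by 1.60 (adjusted p = 6.5e-05) and ROM1, a photoreceptor disc tetraspanin, by 2.01 (adjusted p = 0.00039). TSPAN15 fell by 2.05 (adjusted p = 0.025) and TSPAN18 by 1.37 (adjusted p = 0.039), but each of these calls was lost in 4 of the 6 fits that left out 1 library, with adjusted p of 0.059 to 0.079 for TSPAN15 and 0.09 to 0.1 for TSPAN18. These fits were the ones without K562 replicates 2 or 3 or labelled replicates 2 or 3 for TSPAN15, and without K562 replicates 1 or 3 or labelled replicates 1 or 3 for TSPAN18.

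Within the TspanC8 group the genes took different groups as their highest. TSPAN5 was highest in K562/IM, whereas TSPAN17 lay at 78.4, 86.8 and 99.0 CPM in K562, 85.6, 89.6 and 80.2 in K562+L, 49.4, 48.8 and 53.4 in K562/IM, and 285, 288 and 239 in the K562/IM+L-labelled libraries. TSPAN17 and TSPAN33 thus had the same highest and the same lowest group. Of the 4 other TspanC8 genes tested, which are part of the 14 and stand against the same shares of all genes, 2 rose and 0 fell in K562/IM against K562, 1 rose and 2 fell in the K562/IM+L-labelled libraries against K562/IM, and 2 rose and 1 fell in those libraries against K562. None was called in K562+L against K562, where 1 had an adjusted p under 0.05 below the fold limit. Their common client ADAM10, a partner outside the naming rule and picked after its values were seen, lay at 66.8 to 89.9 CPM in K562, 61.3 to 74.1 in K562+L, 102 to 105 in K562/IM and 47.9 to 60.1 in the K562/IM+L-labelled libraries. Its log2 fold change in the K562/IM+L-labelled libraries against K562/IM was -0.95 ± 0.10, inside the fold limit, and is given as a description.

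**Figure D4:**
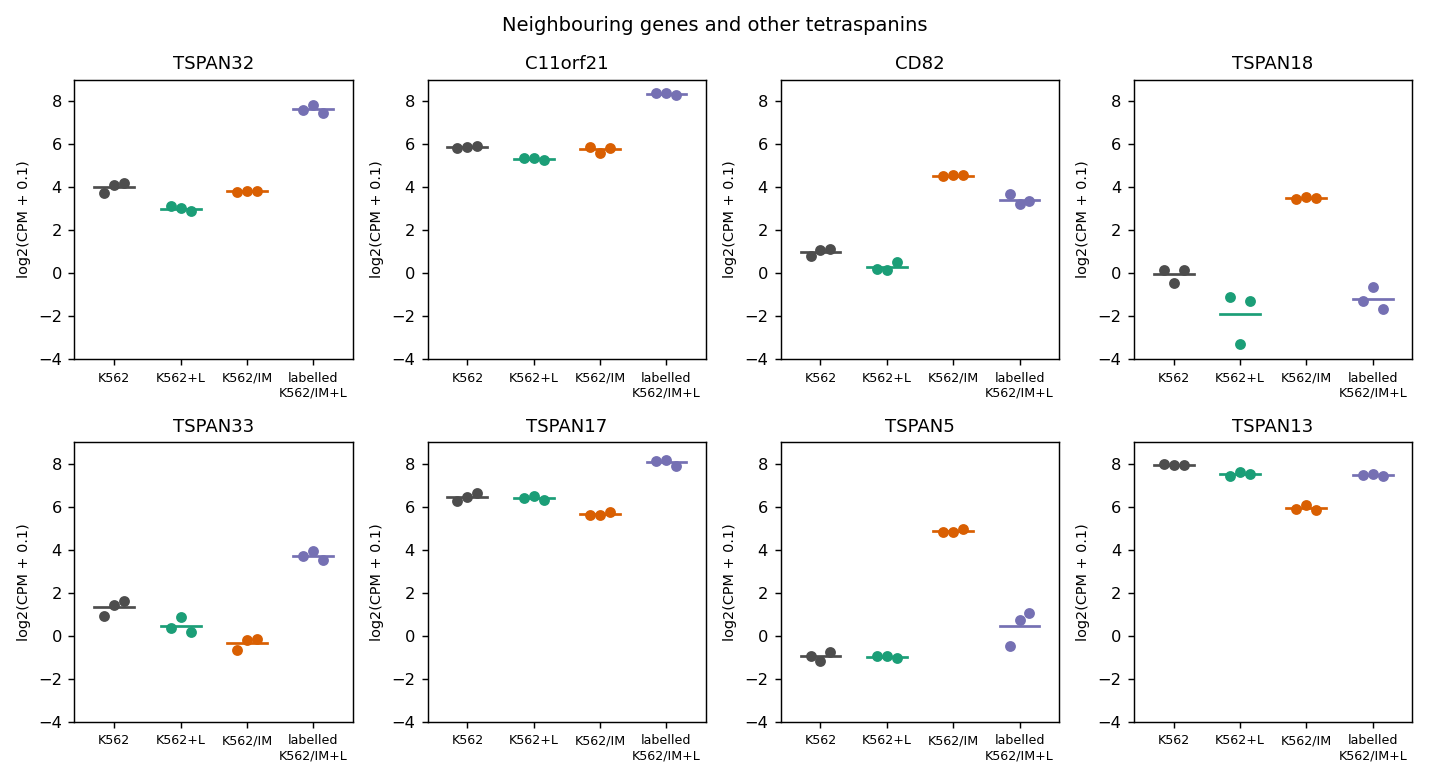
Levels of TSPAN32, TSPAN33 and CD82 with a neighbouring gene or other tetraspanins, as log2(CPM + 0.1) in each library; points are libraries and bars are means of 3. C11orf21 and TSPAN17 are highest in the K562/IM+L-labelled libraries, as TSPAN32 and TSPAN33 are, and TSPAN18 and TSPAN5 are highest in K562/IM, as CD82 is.

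Of 26 listed partners of tetraspanins, 21 to 24 were tested in each comparison, with the same test. The partner list was drawn up with earlier results of these data known. Its counts beside all genes and its adjusted p are therefore a description, not independent support. IFITM1, an interferon-induced membrane protein that associates with CD81, was the only partner that met the call rule in K562+L, and it fell by 1.33 (adjusted p = 0.00045). The median of the 21 partners tested there was -0.16, against 0.00 for all genes, of which 2.38% were called higher and 4.01% lower. In K562/IM against K562, 9 of 23 partners rose and 2 fell, where 13.9% and 5.29% of all genes did, with a median of 0.55 against 0.04. The platelet integrin chains ITGA2B and ITGB3 rose by 5.27 (adjusted p = 1.5e-07) and 4.70 (adjusted p = 9.7e-06), and EPCAM and IFITM1 fell by 1.47 (adjusted p = 5.7e-06) and 1.07 (adjusted p = 0.00021). CD44, the hyaluronan receptor, had 0 counts in all 9 libraries outside K562/IM and at least 148.9 CPM inside it. Against a floor of 3 counts a library, CD44 was at least 3858-fold higher in K562/IM than in K562. In the K562/IM+L-labelled libraries against K562/IM, 2 of 24 partners rose and 11 fell, where 14.7% and 13.8% of all genes did, with a median of -0.87 against -0.01. ITGA2B fell by 3.34 (adjusted p = 2.9e-07) and KIT, the stem cell factor receptor, by 3.25 (adjusted p = 9.1e-06), CD44 was at least 3558-fold lower, and EPCAM rose by 1.06 (adjusted p = 5.2e-05). ITGA6, the laminin receptor chain that pairs with CD151, rose by 1.24 (adjusted p = 0.031), but the call was lost in 5 of 6 fits that left out 1 library (adjusted p of 0.063 to 0.13), all but the one without labelled replicate 3. Against K562, ITGA2B and ITGB3 rose by 1.88 (adjusted p = 4.2e-05) and 3.14 (adjusted p = 0.00069) and PRKCB fell by 1.98 (adjusted p = 4.1e-05), the 2 higher and 1 lower calls among the 21 tested, where 14.9% and 8.91% of all genes were called. The median there was -0.45, against 0.02. In the difference between the lycorine effects, 3 of 24 partners passed higher and 13 lower, and 6 and 4 of the 14 other tetraspanins did, where 29.9% and 31.7% of all genes did.

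The neighbours of the members bear on how the counts are read. C11orf21 overlaps TSPAN32 on the opposite strand and shares 141 exon bases with it. It lay at 58.4 ± 1.70 CPM in K562, 40.1 ± 1.23 in K562+L, 54.5 ± 5.04 in K562/IM and 326 ± 13.4 in the K562/IM+L-labelled libraries (SD, n = 3), the same order of groups as TSPAN32. Whether the counting used strand was not given in the sources used here, and without strand reads of the shared bases cannot be told apart. CD37 shares 319 exon bases with TEAD2 and CD151 shares 257 with POLR2L, each on the opposite strand. TEAD2 lay at 29.7 CPM in K562, 21.3 in K562+L, 47.8 in K562/IM and 22.4 in the K562/IM+L-labelled libraries. POLR2L lay at 127, 83.0, 53.7 and 88.9 CPM in the same order. Genes absent from the count table also overlap members on the opposite strand. CD82 shares 280 exon bases with AC010768.1, CD63 shares 237 with AC009779.2 and CD37 shares 132 with AC011450.1. The overlaps of CD151 with AP006621.1 (41) and CD81 with CD81-AS1 (30) are smaller. CD81 lies 57977 bases from TSPAN32 on the same strand. In the K562/IM+L-labelled libraries against K562, CD81 had a log2 fold change of -0.08 where TSPAN32 had 3.59. Against K562/IM, CD81 had 0.48 where TSPAN32 had 3.86. TSPAN18, 106102 bases from CD82, lay at 0.885 ± 0.219 CPM in K562, 0.222 ± 0.194 in K562+L, 11.2 ± 0.252 in K562/IM and 0.348 ± 0.164 in the K562/IM+L-labelled libraries, so that it was high in K562/IM with CD82 but not in the labelled libraries, where CD82 lay at 10.7 CPM.

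The genes whose profile over the 12 libraries was most like that of a member were found by Pearson's r of log2 CPM among 11658 genes. The libraries form 4 separate groups, so r mainly describes the order and spacing of the group means and is given without p. For CD53 they were PHACTR2 (r = 0.998), PAM (0.996) and EDARADD (0.995), and for CD37 KIF13B (0.993), CDC42BPB (0.982) and CNR1 (0.981). PHACTR2 lay at 1.47, 1.84, 65.4 and 0.427 CPM on average in K562, K562+L, K562/IM and the K562/IM+L-labelled libraries. For CD82 they were DOCK6 (0.993), CSF1 (0.993) and C1orf116 (0.991). For TSPAN32 they were HAUS4 (0.997), CCDC88B (0.996) and its overlapping neighbour C11orf21 (0.996). For TSPAN33 all 3 were globin genes: HBG2 (0.994), HBG1 (0.992) and HBZ (0.991). HBG2 averaged 3328 CPM in K562, 2043 in K562+L, 979 in K562/IM and 16991 in the K562/IM+L-labelled libraries, the same order of groups as TSPAN33.

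Markers of blood cell types moved with several members. The 6 late erythroid genes listed summed to 1309 to 1669 CPM in K562, 776 to 1054 in K562+L, 484 to 566 in K562/IM and 9541 to 13549 in the K562/IM+L-labelled libraries, where TSPAN32 and TSPAN33 were also highest. Each gene of the list was highest there, and HBA1 and HBA2 made up most of the sum (means of 767 and 676 CPM in K562). Between K562 and K562+L the list went both ways. HBA1, HBA2 and AHSP had lower means in K562+L, while ALAS2 (43.6 to 48.9 CPM), SLC4A1 (4.35 to 5.46) and EPB42 (0.396 to 0.610) had higher ones. The 6 megakaryocyte genes summed to 285 to 424, 216 to 331, 250 to 255 and 671 to 1038 CPM in the same order of groups, but the list went both ways. GP1BB made up nearly all of the sum outside K562/IM, with means of 362, 284, 55.5 and 831 CPM. ITGA2B (4.83, 3.06, 186 and 18.0 CPM) and ITGB3 (0.429, 0.413, 11.2 and 3.86 CPM), which also stand among the partners, were highest in K562/IM. PPBP was at 0 throughout, and GP9 and PF4 had group means of at most 0.0821 CPM. The 6 myeloid genes summed to 112 to 118, 113 to 132, 201 to 207 and 77.9 to 82.8 CPM, of which LYZ made up most, with means of 111, 120.3, 166 and 78.1 CPM. LYZ and SPI1 (2.29 to 2.78, 3.61 to 4.77, 33.0 to 35.2 and 1.81 to 2.15 CPM) were the 2 of the 6 with the same order of group means as CD53. ITGAM was also highest in K562/IM (3.02 CPM) but lowest in K562, while CSF1R was highest in the K562/IM+L-labelled libraries, CD14 was lowest in K562/IM, and these and MPO had group means of at most 0.347 CPM. The 5 T cell genes summed to 2.05 to 3.05, 0.589 to 0.843, 22.0 to 23.6 and 0.978 to 1.25 CPM, with CD3D making up most of the K562/IM value. This list also went both ways. CD3D was highest in K562/IM, as were CD3G and CD2, with group means of at most 0.386 CPM. CD3E and CD5 were lowest in K562/IM and highest in the K562/IM+L-labelled libraries, with group means of at most 0.454 CPM. MS4A1, which marks B cells, was at 0 in every library. The part of these lineage levels in the tetraspanin values was not tested. In bulk RNA, more cells of a kind and more RNA a cell cannot be told apart.

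The K562 libraries were spread in a similar way in most members: replicate 1 had the lowest level of its group in 7 of the 9 members and replicate 3 the highest in 7. This did not hold for all genes. The partners ADAM10 (89.9, 77.4 and 66.8 CPM in K562 replicates 1, 2 and 3) and PRKCB (363, 321 and 294 CPM) went the other way. Other groups also had a library that was often lowest: replicate 3 in 6 of the 9 members in K562+L, replicate 1 in 6 in K562/IM, and replicate 3 in 5 in the K562/IM+L-labelled libraries. The coefficients of variation of CD63, CD81 and CD151 were 13.1%, 15.6% and 16.9% in K562. They were 14.3%, 15.8% and 11.9% in the K562/IM+L-labelled libraries, at most 6.18% in K562+L and at most 4.66% in K562/IM.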

How the data were processed

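The 12 libraries were grouped by the submitters' labels, 3 to each line with or without lycorine. The deposited table holds whole-number counts per gene symbol made by the authors before deposit. The submitters' processing notes name FastQC, STAR, StringTie and DESeq2 and the build hg38, without versions. How reads became counts, the annotation and the use of strand were not given in the sources used here. Among the 23289 values from 1 to 25, 67.9% were multiples of 4 or 1 above, where 52% of whole numbers are, so counting error may be larger than the counts imply; dividing all counts by 4 was 1 of the alternatives. Column totals were 75093844 to 107344598, and 0 columns were without a sample.

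Each comparison was fitted on its 6 libraries with the quasi-likelihood test of edgeR 4.0.16 in R 4.3.3, after filterByExpr (minimum count 10) and TMM scaling, with Benjamini-Hochberg adjustment over all genes tested. Calls needed a fold change past 1 on the log2 scale, in either direction, as well as an adjusted p below 0.05. The difference between lycorine effects was fitted over all 12 libraries and called at an adjusted p under 0.05. The fits were tested on simulated data. An exact permutation test of 3 against 3 cannot go below 0.1 (two-sided), so none is printed. Between genes, CPM was divided by the length of the longest protein-coding transcript in GENCODE 29. Log2 CPM for likeness had a prior count of 2, and genes with a mean of at least 1 CPM entered.

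The 9 genes, the lists of 24 other tetraspanins, 26 partners and 5 TspanC8 genes, and the cell type markers were chosen with earlier results of these data known. The other genes named are, from each list, up to 3 called genes a direction and comparison, taken by smallest p, and for members with a mean over 1 CPM and at least a 4-fold range of group means the 3 genes most alike. Replicate numbers did not pair the libraries, since the correlation of deviations was over 0.1 in 2 of 18 same-numbered pairs. Alternatives were DESeq2 1.42.0, other scalings and filters, 1 fit over all libraries, a replicate block, no fold limit, levels without division by length, and leaving out each library. The summed level of the B cell markers is not reported here.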

Additional observations from a re-analysis of the deposited data

Results flagged for a closer look

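For 7 of the 9 tetraspanins the lines, taken as labelled, had different log2 effects of lycorine, by the difference fitted over all 12 libraries (estimate for the K562/IM+L-labelled libraries against K562/IM minus estimate for K562+L against K562). The difference was 5.14 for TSPAN33, 4.87 for TSPAN32, 1.72 for CD63, 0.57 for CD81 and 0.41 for CD9, and -2.60 for CD37 and -5.90 for CD53. The effects behind them were -0.91 and 4.25 for TSPAN33, -1.04 and 3.86 for TSPAN32, -1.40 and 0.34 for CD63, -0.12 and 0.48 for CD81, 0.11 and 0.55 for CD9, 0.28 and -2.30 for CD37, and 0.35 and -5.53 for CD53, in K562 and in K562/IM respectively. Since 29.9% of all genes passed higher and 31.7% lower, passing does not set these genes apart, and the CD9 difference fell short of the threshold without K562 replicate 3, K562+L replicate 3, K562/IM replicate 1 or labelled replicate 2 (0.32 to 0.38). The values rest on the labels of the K562/IM+L libraries.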

How the results depend on the processing

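The direction of each member held in 664 of 675 alternative fits, and 612 also kept their side of the adjusted p threshold. The 11 that turned were CD63 and CD81 in the K562/IM+L-labelled libraries against K562, where both values lie near 0. CD63 (-0.00) became 0.00897 with DESeq2 and with its size factors, 0.0109 with at least 10 counts in every library, 0.0212 in 1 fit over all libraries, 0.0193 with counts divided by 4 and 0.15 with upper-quartile scaling, and ran from -0.0821 to 0.12 without 1 library (positive without K562 replicate 3 or labelled replicate 3). CD81 (-0.08) became 0.0669 with upper-quartile scaling and ran from -0.196 to 0.0484 without 1 library (positive without the same libraries). Upper-quartile scaling also called CD37 higher there.

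Without a fold limit, calls in K562+L against K562 were 5 members, 4 other tetraspanins, 6 partners and 4821 of all genes. In K562/IM against K562 they were 7, 9, 18 and 7661. In the K562/IM+L-labelled libraries against K562/IM they were 8 members and 9169 genes, and against K562 7, 10, 11 and 7446. For K562+L, DESeq2, 1 fit over all libraries and counts divided by 4 each called 2 other tetraspanins in place of 1.

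With a replicate block, calls of other tetraspanins in the K562/IM+L-labelled libraries against K562 were 3 in place of 6. Numbers did not pair the libraries: correlations of same-numbered deviations ran from -0.23 to 0.15, and 9 of 18 were best with their own number.

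Leaving out 1 library gave, for K562+L, 1 to 3 members, 1 to 2 other tetraspanins (2 without K562+L replicate 2), 1 to 2 partners (2 without K562 replicate 1) and 672 to 1085 genes. It gave 4 to 4 members and 2392 to 2884 genes for K562/IM, 4 to 5 and 3790 to 4323 for the K562/IM+L-labelled libraries against K562/IM, and 4 to 5 and 3013 to 3209 against K562, with 3 to 7 partners (7 without labelled replicate 3). For the difference between effects it gave 6 to 8 members and 8043 to 8906 genes. Leaving out 1 library also gave 11 to 13 other tetraspanins in the K562/IM+L-labelled libraries against K562/IM, where the fit with all libraries gave 9. The low-count filter was applied anew in each fit, so the genes tested may differ. Without division by length, 28 of 36 shares of the summed level moved by more than 1 SD. Depth limits TSPAN33, CD37 and CD82 most, with 44 counts in the lowest library of TSPAN33. The cause of these changes was not tested.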
